A study of Mus musculus with 14 samples.

Results

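The high-affinity IgE receptor of mast cells, FcεRI, is built from 3 gene products: the α chain (Fcer1a), the β chain (Ms4a2) and the γ chain (Fcer1g). These 3 genes were taken by name from a table of 55487 genes, with identifiers matched to symbols without their version, and all 3 were among the 21014 genes that passed the filter on low counts and were tested. The libraries were made from small pools of mast cells, at most 100 cells each, sorted from both ears of mice. Libraries 1 to 5 held resident mast cells of untreated mice (n = 5), and libraries 6 to 10 held resident mast cells after MC903 treatment (n = 5). Libraries 11, 13, 14 and 15 (n = 4) also came from treated mice, and their label calls them bone marrow mast cells. MC903 is calcipotriol, a vitamin D analogue that produces a dermatitis resembling atopic dermatitis when put on mouse skin. Resident cells and cells positive for integrin β7 are the populations the sorting protocol names, and the bone marrow label was taken to stand for the latter. Strain, genotype, age, dose and duration of treatment were not given in the sources used here, nor which libraries came from the same animal, so p-values measure the spread between these libraries.

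FcεRI holds IgE on the mast cell surface, and crosslinking of that IgE by antigen releases granules and starts the synthesis of lipid mediators and cytokines. The α chain carries the IgE-binding domains and has no signalling motif of its own. The β chain, a membrane-spanning MS4A protein, amplifies the signal and helps the complex to the surface, and the γ chain, present as a linked pair, carries the activation motifs that recruit the kinase Syk. In rodents a complete receptor on the surface needs the β chain, and γ is shared with the activating Fcγ receptors and with several lectin receptors. The libraries measured RNA only, so levels of a chain below are levels of its transcripts. Chain protein and surface receptor were not measured.

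Library totals ran from 13068078 to 31781926 counts, and each chain had at least 10479 counts in every library. These are amplified reads from few cells without molecular identifiers, so their number does not bound the sampling error of molecules. All 10 mast cell markers were at 1 CPM (read counts scaled to a common library total with TMM factors) or more in every library, with a summed level of 87697 to 160570 CPM. Libraries 8, 7 and 15 had the most genes detected (35246, 34560 and 32814, against at most 28790 in the others). The 12 macrophage and dendritic cell markers summed to 13528 CPM in library 15, 86.5 to 394 CPM in libraries 11, 13 and 14, and 59.8 to 183 CPM in the resident ones. In library 15 Lyz2 was at 4789 CPM, Cd74 at 2696 CPM and Csf1r at 1094 CPM. Macrophages express Fcer1g, so the chains in bone marrow cells, and the called pathway genes, are given with and without library 15, and the part of these markers in them was not tested. Basophils carry FcεRI as well. Of their 4 listed markers, Mcpt8 was at 979, 206, 83.5 and 46.2 CPM in libraries 11, 13, 14 and 15 and at most 57.1 CPM in any resident library. Prss34 was at most 41.7 CPM in any library (library 7). The other listed basophil markers, Cd200r3 and Itga2, are also made by mast cells. Neutrophil, keratinocyte and fibroblast markers summed to at most 6.44, 10.1 and 31.6 CPM per library, except for 84.7 CPM of neutrophil markers in library 15. T and NK cell markers summed to at most 84.1 CPM (library 13). In bulk libraries, fewer cells of a type and less RNA per cell cannot be told apart.

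On GRCm38, Fcer1a (ENSMUSG00000005339.10) lies on chromosome 1 from 173221284 to 173227214, Fcer1g (ENSMUSG00000058715.11) on the same chromosome from 171229572 to 171234365, and Ms4a2 (ENSMUSG00000024680.12) on chromosome 19 from 11615523 to 11623719. All 3 are on the minus strand, and no other gene of the table overlaps them. Their summed exon lengths are 998, 874 and 2813 bases, so levels are compared between chains only per kilobase of exon. The 250 bases before each start are shown because the chains of this single complex changed in different directions. They are from RefSeq on GRCm38.p6, minus strand, read 5′ to 3′, at chr1:173227230-173227479 for Fcer1a, chr19:11623720-11623969 for Ms4a2 and chr1:171234350-171234599 for Fcer1g. The RefSeq starts of Fcer1a and Fcer1g differ from the gene bounds given above, and the Fcer1g window reaches into the gene as bounded there. Capitals mark the GATA motif, searched on both strands as GATA with an A or T before it and an A or G after it.
Fcer1a: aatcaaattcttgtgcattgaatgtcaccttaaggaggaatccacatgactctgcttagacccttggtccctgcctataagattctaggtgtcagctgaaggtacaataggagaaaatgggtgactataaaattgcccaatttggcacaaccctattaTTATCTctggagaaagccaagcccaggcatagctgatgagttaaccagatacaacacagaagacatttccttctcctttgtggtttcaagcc
Ms4a2: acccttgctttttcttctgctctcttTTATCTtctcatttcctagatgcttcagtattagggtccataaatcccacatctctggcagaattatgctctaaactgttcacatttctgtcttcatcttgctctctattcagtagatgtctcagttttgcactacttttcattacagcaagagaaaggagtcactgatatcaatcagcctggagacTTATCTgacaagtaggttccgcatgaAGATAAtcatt
Fcer1g: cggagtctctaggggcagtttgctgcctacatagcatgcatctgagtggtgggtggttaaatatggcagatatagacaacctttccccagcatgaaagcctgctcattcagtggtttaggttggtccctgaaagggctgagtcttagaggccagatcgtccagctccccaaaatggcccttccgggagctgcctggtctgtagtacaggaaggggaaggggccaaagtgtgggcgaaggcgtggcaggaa

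The Fcer1a window held 1 GATA match, 92 to 87 bases before the start. The Ms4a2 window held 3 such matches (224 to 219, 37 to 32 and 11 to 6 bases before the start), and these letters were not in the Fcer1g window. Of 32851 RefSeq promoter windows of the same length, 26.5% held at least 1 match and 1.35% held at least 3. The ETS core GGAA occurred 2, 2 and 5 times in the Fcer1a, Ms4a2 and Fcer1g windows, on either strand, and in 93.5% of all windows. The E-box CANNTG occurred 2, 0 and 1 times and was in 66.2% of all windows. A TATAAA match was found in the Fcer1a window and in 12.4% of all windows. GC made up 42.4%, 38.8% and 54.8% of the 3 windows.

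The α chain separated untreated from treated skin most sharply. Fcer1a was at 656, 729, 529, 667 and 1114 CPM in untreated resident libraries 1 to 5, and at 7040, 3787, 4544, 6764 and 6384 CPM in libraries 6 to 10 (MC903 resident). In bone marrow libraries 11, 13, 14 and 15 it was at 4013, 3182, 3032 and 2037 CPM. Every library from treated mice was above every untreated library, and library 11 was the only bone marrow library inside the MC903 resident range. The group means were 739 ± 222 CPM (SD, n = 5), 5704 ± 1449 CPM (SD, n = 5) and 3066 ± 811 CPM (SD, n = 4), in the order untreated resident, MC903 resident and bone marrow. Per kilobase of exon, Fcer1a ranked between 47 and 75 among the genes tested in untreated libraries, between 7 and 11 in MC903 resident libraries and between 14 and 27 in bone marrow libraries.

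The β chain went the other way. Ms4a2 was at 1659, 1757, 1813, 1747 and 2749 CPM in untreated libraries 1 to 5, and at 1226, 833, 668, 1161 and 1514 CPM in libraries 6 to 10 (MC903 resident). It was at 732, 858, 802 and 526.2 CPM in bone marrow libraries 11, 13, 14 and 15. All libraries from treated mice were below all untreated libraries, while the treated groups overlapped. The means were 1945 ± 453 CPM (SD, n = 5), 1080.5 ± 334 CPM (SD, n = 5) and 729.7 ± 145 CPM (SD, n = 4). Its rank per kilobase was 53 to 67 in untreated, 76 to 161 in MC903 resident and 174 to 276 in bone marrow libraries.

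The γ chain stayed in a narrow band. Fcer1g was at 1394, 1460.3, 1515, 1615 and 2237 CPM in untreated libraries 1 to 5, and at 2110.05, 1363, 2277, 2272 and 2183 CPM in libraries 6 to 10 (MC903 resident). It was at 2073, 2142, 1945 and 1856 CPM in bone marrow libraries 11, 13, 14 and 15. The 3 groups overlapped, with untreated library 5 at the level of the treated groups and MC903 resident library 7 below every untreated library. The means were 1644 ± 341 CPM (SD, n = 5), 2041 ± 385 CPM (SD, n = 5) and 2004 ± 128 CPM (SD, n = 4). Fcer1g kept a rank of 17 to 26 per kilobase in all 14 libraries. In library 15, with its high macrophage markers, Fcer1g was the lowest of the bone marrow libraries, as were Fcer1a and Ms4a2. That library also had the lowest summed mast cell markers of its group (107560 CPM against 134950 to 160570 CPM). Among bone marrow libraries Fcer1g took its largest share of the 3 chains per kilobase there (48.8% against 35.7% to 41.2%). What macrophages added to it was not tested.

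**Figure D1:**
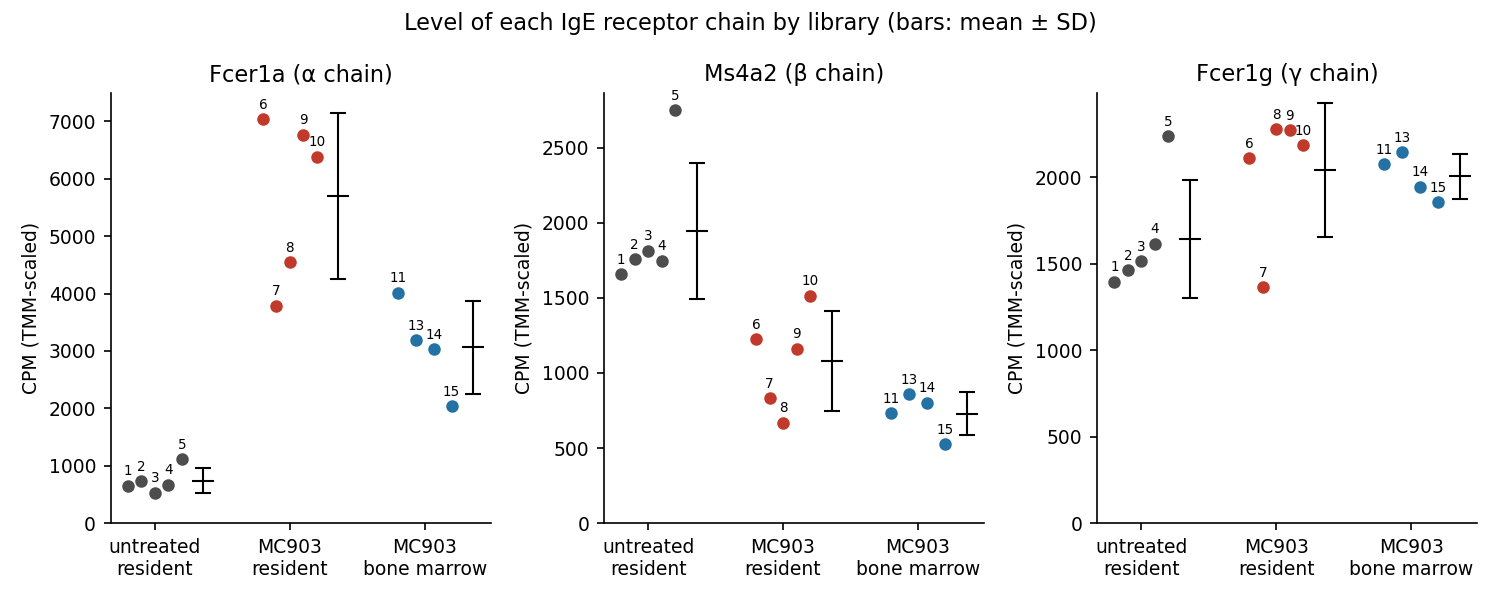
CPM of Fcer1a, Ms4a2 and Fcer1g in each library (points, numbered by library) with the mean ± SD of each group beside them, on linear axes that start at 0. Fcer1a lies between 529 and 1114 CPM in untreated cells and between 2037 and 7040 CPM in both treated groups, and Ms4a2 lies higher in untreated cells.

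The first comparison asked what MC903 treatment did to the receptor chains of resident mast cells. Of the 3 chains, 1 rose and 1 fell, where 2.25% of all genes tested were called (0.571% higher and 1.68% lower). The same 2 chains were without overlap between libraries, as were 5.33% of all genes (2.13% higher and 3.2% lower). A gene was called at an adjusted p-value under 0.05 in edgeR's quasi-likelihood test. Fcer1a rose 7.75-fold, a log2 fold change of 2.95 ± 0.232 (SE, adjusted p = 7.1e-07 by edgeR), and had the smallest p-value of the 21014 genes. The share of counts from mitochondrial genes moved with treatment as well, at 1.22% to 1.70% in untreated, 2.39% to 3.96% in MC903 resident and 2.14% to 4.24% in bone marrow libraries, and its part in this and the other differences from untreated cells was not tested. Fcer1a was higher in 5 of 5 treated libraries than in any untreated one, and leaving out each library in turn gave 2.87 to 3.15. Ms4a2 fell by 0.84 on the log2 scale (SE 0.210, adjusted p = 0.035 by edgeR). Dropping single libraries ended the Ms4a2 call in 8 of 10 cases. Without libraries 1, 3, 4, 5, 6, 7, 8 and 9 its adjusted p by edgeR was 0.0537, 0.0576, 0.0591, 0.0888, 0.061, 0.111, 0.0885 and 0.078, respectively, and its log2 fold change over all 10 fits ran from -0.99 to -0.68. Without libraries 7, 8 and 15 together it was -0.58 (adjusted p = 0.184 by edgeR). Fcer1g was not called, with a log2 fold change of 0.32 ± 0.166 (SE, adjusted p = 0.459 by edgeR, 95% interval -0.03 to 0.66).

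The median gene itself lay at 0.24 on the log2 scale in that comparison, and it moved to 0.40 with DESeq2 size factors and 0.45 with TMM factors from genes of at least 10 CPM. Relative to the median gene, over TMM, both of these and an offset for gene length, Fcer1a was 2.54 to 2.71 higher and Ms4a2 was at -1.13 to -1.09. Fcer1g was at -0.21 to 0.08 from the median gene, with either sign depending on the scaling. The choice of genes and libraries moved these relative values further. Over all 9 alternatives that did not drop single libraries, Fcer1a was 2.19 (no filter) to 3.15 (without libraries 7, 8 and 15) above the median gene. Ms4a2 ran from -1.60 (no filter) to -0.62 (without libraries 7, 8 and 15) and Fcer1g from -0.45 (no filter) to 0.48 (only genes of at least 10 CPM). The spread of all 3 chains between libraries of a group was low beside that of all genes tested, which were not matched for abundance. Their biological coefficients of variation in edgeR were 0.292 (Fcer1a), 0.286 (Ms4a2) and 0.251 (Fcer1g), at percentiles 3.63, 3.01 and 0.324 of the genes tested.

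The second comparison stayed within treated skin and asked how bone marrow cells differed from resident ones, with the MC903 resident libraries used again. Of the 3 chains, 1 was called, lower in bone marrow cells, where 2.27% of all genes tested were called (1.32% higher and 0.952% lower). None of the chains was without overlap here, against 8.29% of all genes (4% higher and 4.29% lower). Fcer1a was 1.87-fold lower, with a log2 fold change of -0.90 ± 0.233 (SE, adjusted p = 0.0441 by edgeR). The call was lost without libraries 6, 9, 10, 13, 14 and 15 in turn (adjusted p = 0.0624, 0.0503, 0.0841, 0.0606, 0.0746 and 0.073 by edgeR). Without library 15 the Fcer1a log2 fold change was -0.74, and without library 11, which had the most Mcpt8, it was -1.09 (adjusted p = 0.017). The median gene lay at -0.28 here, and relative to it Fcer1a was at -0.63, or -0.78 to -0.61 over the 4 scalings. That relative value depended on the genes and tool used: with limma voomWithQualityWeights, where the median gene lay at -0.79, it was -0.0009, and without the filter on low counts, where the median lay at -1.18, it was 0.32. Ms4a2 was not called, at -0.57 ± 0.224 (SE, adjusted p = 0.182 by edgeR), with 95% interval -1.04 to -0.11. It was called with DESeq2's Wald test (adjusted p = 0.0199), with the length offset (0.036), with TMM factors from genes of at least 10 CPM (0.0447) and when only genes of at least 10 CPM were tested (0.0295). Fcer1g had a log2 fold change of -0.03 ± 0.176 (SE, adjusted p = 0.949 by edgeR), and its 95% interval of -0.40 to 0.33 bounds a difference of either sign. Without library 15 Fcer1g was at 0.01 and Ms4a2 at -0.44 (adjusted p = 0.168).

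The third comparison set bone marrow cells of treated skin beside resident cells of untreated skin, so treatment and cell label changed together, and it shares a group with each of the others. Of the 3 chains, 1 was higher and 1 lower in bone marrow cells, where 6.87% of all genes tested were called (3.49% higher and 3.37% lower). Both were without overlap, as were 10.4% of all genes (5.11% higher and 5.27% lower). Fcer1a was 4.15-fold higher, with a log2 fold change of 2.05 ± 0.232 (SE, adjusted p = 8.89e-06 by edgeR). Ms4a2 was 2.66-fold lower, with a log2 fold change of -1.41 ± 0.229 (SE, adjusted p = 0.000421 by edgeR). Neither call was lost in any of the 9 fits with a single library dropped (1.89 to 2.25 for Fcer1a and -1.51 to -1.26 for Ms4a2). Without library 15 these values were 2.21 for Fcer1a and -1.28 for Ms4a2 (adjusted p = 3.85e-07 and 0.000793 by edgeR), and without library 11 they were 1.89 and -1.43. Relative to the median gene, at -0.14, Fcer1a was 1.84 to 2.20 higher over the 4 scalings and Ms4a2 was at -1.37 to -1.27. With limma, where the median gene lay at -0.46, these were 2.71 and -0.81, and without libraries 7, 8 and 15 they were 2.52 and -0.98. Fcer1g was not called at 0.29 ± 0.175 (SE, adjusted p = 0.377 by edgeR, 95% interval -0.08 to 0.65), and with the length offset its sign turned (-0.27). Dropping library 15 gave 0.32 (adjusted p = 0.231).

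**Figure D2:**
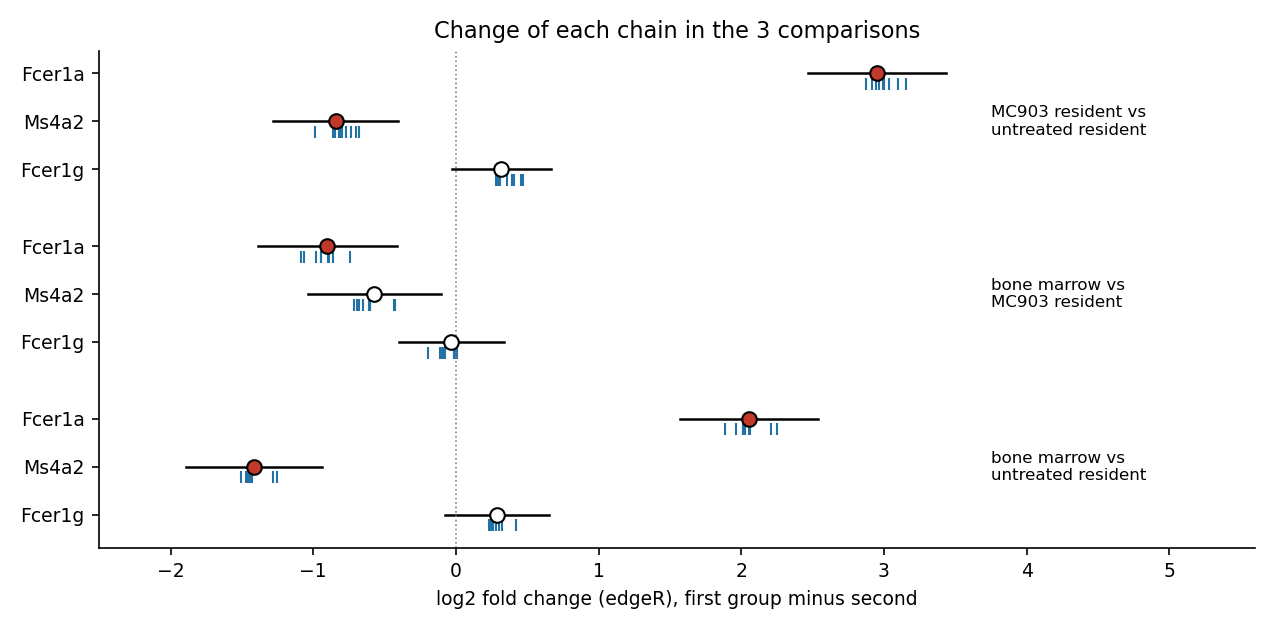
Log2 fold change of each chain in the 3 comparisons from edgeR, with its 95% interval (line), filled where the adjusted p-value was under 0.05. Blue ticks are the values when each library was left out in turn. Fcer1a at 2.95 and Ms4a2 at -0.84 lie on opposite sides of 0 in the comparison of resident cells, and the intervals of Fcer1g include 0 in all 3.

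A single scaling factor per library cancels in the balance of the chains within it, whereas an offset that differs by gene length does not. With the length offset, Ms4a2/Fcer1g differences from untreated cells were -0.89 in MC903 resident and -1.23 in bone marrow cells on the log2 scale, against -1.19 and -1.72 without it. In untreated cells Fcer1g made up 57.0% ± 2.13 (SD, n = 5) of the summed level per kilobase of the 3 chains, Fcer1a 22.2% ± 2.46 and Ms4a2 20.9% ± 0.856. In MC903 resident cells Fcer1a made up 67.4% ± 3.62 (SD, n = 5), Fcer1g 28.0% ± 4.18 and Ms4a2 4.55% ± 0.966. In bone marrow cells the shares were 53.9% ± 5.55 (SD, n = 4), 41.4% ± 5.46 and 4.62% ± 0.615, in the same order. Fcer1g was the most abundant chain per kilobase in 5 of 5 untreated libraries, and Fcer1a was in 5 of 5 MC903 resident libraries. Among bone marrow libraries Fcer1a led in 3 and Fcer1g in 1, library 15, where the values were 2041 and 2123 CPM per kilobase. Ms4a2 was the least abundant per kilobase in every library except untreated library 3, where it was at 645 and Fcer1a at 530.1 CPM per kilobase. This order and the shares rest on the summed length of all annotated exons. By CPM without length, Ms4a2 was the highest chain in each untreated library (1659 to 2749 CPM, with Fcer1g at 1394 to 2237 CPM).

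**Figure D3:**
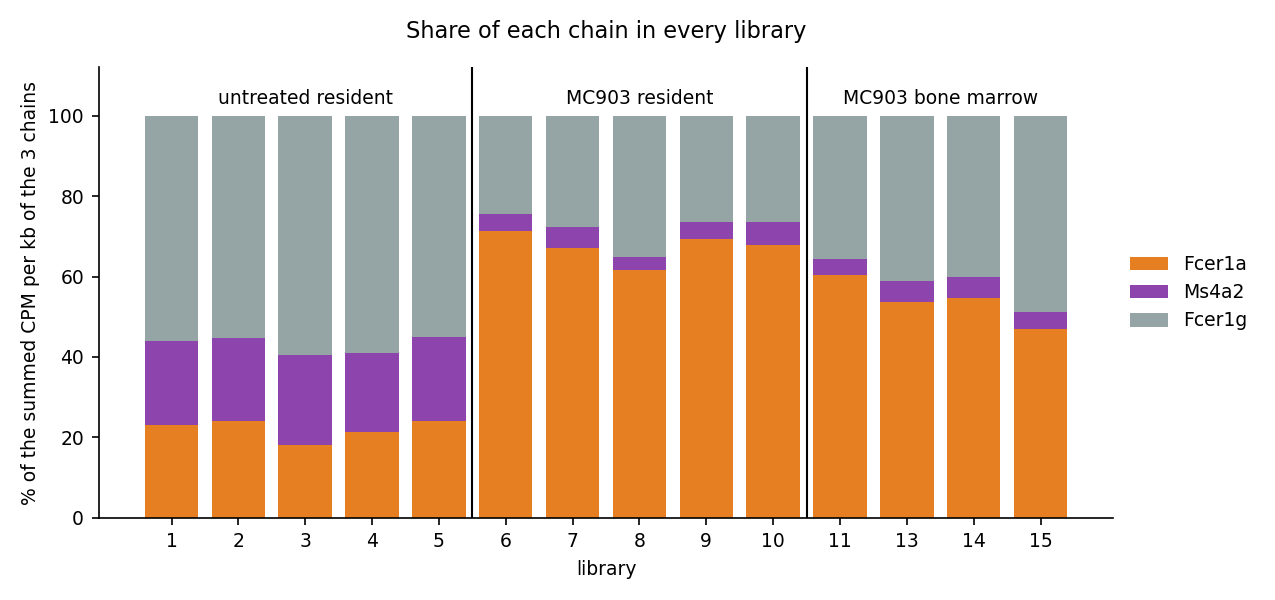
Share of Fcer1a, Ms4a2 and Fcer1g in the summed CPM per kilobase of exon of the 3 chains, one bar per library, in percent. Ms4a2 takes 19.8% to 22.2% in untreated libraries and 3.21% to 5.70% in libraries from treated mice.

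The α to β ratio of transcripts per kilobase was near 1 in untreated cells and above 10 in both treated groups. Fcer1a/Ms4a2 was 1.11, 1.17, 0.822, 1.08 and 1.14 in untreated libraries 1 to 5, and 16.2, 12.8, 19.2, 16.4 and 11.9 in MC903 resident libraries 6 to 10. It was 15.4, 10.5, 10.7 and 10.9 in bone marrow libraries 11, 13, 14 and 15. No library from treated mice came near the untreated ones, and the treated groups overlapped through library 11, the one with Mcpt8 at 979 CPM. The other listed basophil markers were not higher in library 11 than in library 13 (Prss34 4.77 against 15.9, Cd200r3 527 against 532.5 and Itga2 36.05 against 36.06 CPM). The part of Mcpt8 in the ratio of library 11 was not tested. The log2 ratio was 3.83 ± 0.156 (SE) higher in MC903 resident than in untreated cells (exact two-sided permutation test, p = 0.00794), 14.3-fold. It was 3.47 ± 0.163 (SE) higher in bone marrow than in untreated cells (exact permutation p = 0.0159), 11.1-fold. Both p-values are the smallest these group sizes allow, and each was 0.0204 after Benjamini-Hochberg adjustment over the 9 ratio comparisons made. Libraries also did not overlap in their ratio to Ms4a2 for 25.1% and 59.7% of the genes averaging 20 CPM or more in these comparisons, so lack of overlap alone is common here. Between bone marrow and MC903 resident cells the difference was -0.36 ± 0.184 (SE, exact permutation p = 0.0952, adjusted 0.0952), and without library 11 it was -0.50 (adjusted 0.0402). Without library 15 the bone marrow differences were 3.50 from untreated and -0.33 from MC903 resident cells.

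The α to γ ratio turned over with treatment. Fcer1a/Fcer1g per kilobase was 0.412, 0.437, 0.306, 0.362 and 0.436 in untreated libraries 1 to 5, and 2.92, 2.43, 1.75, 2.61 and 2.56 in MC903 resident libraries 6 to 10. In bone marrow libraries 11, 13, 14 and 15 it was 1.70, 1.30, 1.37 and 0.961. The 3 groups did not overlap, with bone marrow cells between the others. The log2 ratio was 2.64 ± 0.159 (SE) higher in MC903 resident than in untreated cells (exact permutation p = 0.00794). From MC903 resident to bone marrow cells the log2 difference was -0.89 ± 0.210 (SE, exact permutation p = 0.0159). Bone marrow cells were 1.75 ± 0.195 (SE) above untreated cells (exact permutation p = 0.0159). Each of the 3 was 0.0204 after adjustment over the 9. Without library 15 the bone marrow differences were -0.74 and 1.90 (adjusted 0.0459 each). Ratios to Fcer1g did not overlap for 16.9%, 11.1% and 23.2% of genes averaging 20 CPM or more in these 3 comparisons.

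The β to γ ratio dropped in both treated groups. Ms4a2/Fcer1g was 0.370, 0.374, 0.372, 0.336 and 0.382 in untreated libraries 1 to 5, a range of 0.336 to 0.382. It was 0.181, 0.190, 0.0912, 0.159 and 0.215 in MC903 resident libraries 6 to 10, and 0.110, 0.124, 0.128 and 0.0881 in bone marrow libraries 11, 13, 14 and 15. The untreated libraries were close together and above all others, and library 8 lay with the bone marrow libraries. The log2 difference was -1.19 ± 0.218 (SE) for MC903 resident against untreated cells (exact permutation p = 0.00794) and -1.72 ± 0.127 (SE) for bone marrow against untreated cells (exact permutation p = 0.0159), both 0.0204 after adjustment over the 9. Bone marrow against MC903 resident cells gave -0.53 ± 0.249 (SE, exact permutation p = 0.0794, adjusted 0.0893), and without library 8 -0.73 (adjusted 0.0321). Without library 15 the bone marrow differences were -0.41 from MC903 resident and -1.60 from untreated cells.

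**Figure D4:**
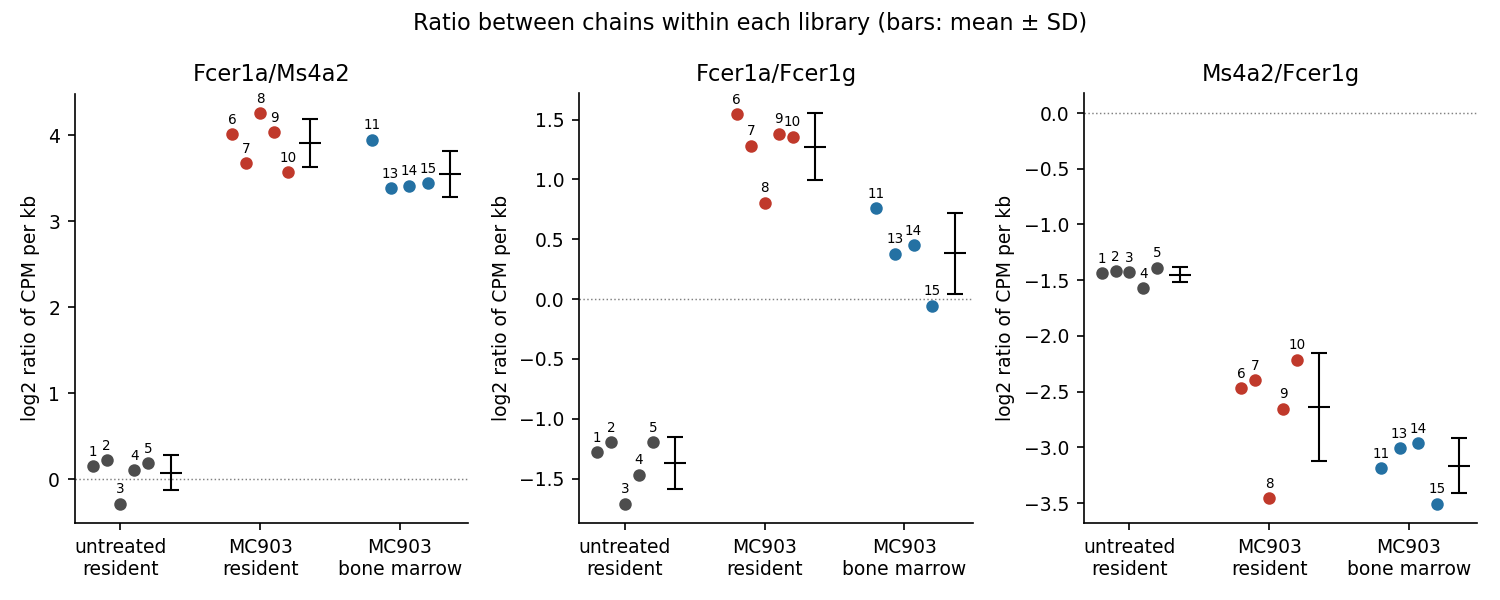
Log2 ratio of CPM per kilobase between each pair of chains in every library (points, numbered) with the mean ± SD of the group beside them. The dotted line marks equal levels. Fcer1a/Ms4a2 lies between -0.28 and 0.23 in untreated cells and between 3.39 and 4.26 in cells from treated mice.

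Inside a group the chains varied together from library to library. After the group means of log2 CPM were subtracted, Pearson's r over the 14 libraries was 0.79 for Fcer1a with Ms4a2, 0.72 for Fcer1a with Fcer1g and 0.53 for Ms4a2 with Fcer1g. Without that subtraction the values were -0.56, 0.67 and -0.22. These values are a description, since the points share each library's scaling and depth. Library 5 had the highest CPM of all 3 chains among untreated libraries, and library 15 the lowest of all 3 among bone marrow libraries.

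By Pearson correlation of log2 CPM over the 14 libraries, among 6033 named genes averaging 20 CPM or more, the pattern most like that of Fcer1a was that of Tph1, which encodes the tryptophan hydroxylase of serotonin synthesis (r = 0.97). Tph1 was at 576 ± 104 CPM (SD, n = 5) in untreated, 2370 ± 564 CPM (SD, n = 5) in MC903 resident and 1609 ± 381 CPM (SD, n = 4) in bone marrow cells. Rprm (r = 0.96), Homer2 (0.93), the phosphatase gene Ptpn2 (0.91) and the tryptase gene Tpsb2 (0.91) followed. With group means subtracted these 5 kept r of 0.54 (Tpsb2) to 0.88 (Ptpn2). The genes nearest to Ms4a2 were Serpinb1a, a protease inhibitor gene (r = 0.96), Tceal8 (0.94), Ube2q2 (0.94), the ubiquitin gene Ubb (0.93) and the RNA helicase gene Ddx5 (0.93). Serpinb1a was at 21992 ± 4274, 14609 ± 3493 and 13055 ± 1906 CPM in the same group order, and kept r = 0.93 after subtraction. The genes nearest to Fcer1g were Uqcrh (0.93), Sem1 (0.92), Rbx1 (0.92), Atp5j (0.91) and Ndufs5 (0.91), of which Uqcrh, Atp5j and Ndufs5 encode parts of the respiratory chain or ATP synthase. Uqcrh averaged 98.0 ± 33.3, 123 ± 34.5 and 108 ± 17.7 CPM in untreated resident, MC903 resident and bone marrow cells, and Atp5j 109 ± 45.4, 141 ± 34.3 and 153 ± 9.15 CPM. For the 5 genes r after subtraction was 0.89 to 0.97.

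Genes that carry the receptor's signal, its brakes, the partners of the γ chain, factors known at the promoters of the chains, the Ms4a family and other IgE-binding genes made up 84 listed genes, of which 70 were tested. In MC903 resident against untreated cells 1 was called higher and 2 lower, in bone marrow against MC903 resident cells 1 higher and 0 lower, and in bone marrow against untreated cells 3 higher and 3 lower. Those counts are to be read against 2.25%, 2.27% and 6.87% of all genes called.

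Of 24 proximal signalling genes, none was called between treated and untreated resident cells (edgeR), and the list's median log2 fold change was -0.24 against 0.24 over all genes tested. In bone marrow cells the list's median was -0.08 against MC903 resident cells (-0.28 over all genes) and -0.44 against untreated cells (-0.14 over all genes). Lyn, the kinase that phosphorylates the β and γ chains, was at 249, 248, 228, 249 and 207 CPM in untreated libraries 1 to 5 and 172, 131, 140, 169 and 158 CPM in libraries 6 to 10 (MC903 resident). The groups did not overlap, but the test was missed (log2 fold change -0.61 ± 0.164, adjusted p = 0.0553 by edgeR). Lyn was called with DESeq2's Wald test (adjusted p = 0.0189), limma voomWithQualityWeights (0.00966), when only these groups were fitted (0.0357) and without library 5 (0.0323). Syk, which docks on the γ chain, was at 97.8 ± 29.7, 73.7 ± 28.0 and 59.6 ± 15.1 CPM in untreated resident, MC903 resident and bone marrow cells and was not called in any comparison (lowest adjusted p = 0.178 by edgeR). The kinase gene Fyn was called lower in the bone marrow libraries, averaging 106 ± 43.7 CPM there and 247 ± 39.8 CPM in untreated ones (log2 fold change -1.22 ± 0.260, adjusted p = 0.00472 by edgeR). Without library 15, where it was at 48.0 CPM, its log2 fold change was -0.98 (adjusted p = 0.00765). Against MC903 resident cells Fyn was at -0.78 (adjusted p = 0.12 by edgeR), and 5 of 9 other settings called it lower (adjusted p from 0.00907 with DESeq2 to 0.0478 with DESeq2 size factors in edgeR), as did the fit without library 11 (-1.03, 0.0494). Pik3cd, a phosphoinositide 3-kinase subunit gene, was higher in bone marrow than in untreated cells (log2 fold change 0.93 ± 0.219, adjusted p = 0.0104 by edgeR). That rested on library 14, at 274 CPM against 136 to 144 CPM in the other 3, and without it the value was 0.63 (adjusted p = 0.104); dropping library 15 instead gave 1.01 (adjusted p = 0.00927). Against MC903 resident cells Pik3cd was called at 0.83 (adjusted p = 0.0485 by edgeR), and it kept the call only without library 15 among the 9 fits that left out 1 library (adjusted p from 0.034 to 0.26). That call was also lost in 6 of 9 other settings (adjusted p from 0.064 without the filter to 0.129 with TMM factors from genes of at least 10 CPM).

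Of 16 inhibitory regulators, 1 was called lower in MC903 resident than in untreated cells, 0 in bone marrow against MC903 resident cells and 2 lower in bone marrow against untreated cells. Rabgef1, which encodes Rabex-5, a known brake on FcεRI signalling in mast cells, was at 1292, 995, 977, 1219 and 1178 CPM in untreated libraries 1 to 5. It was at 356, 326, 395, 541 and 467 CPM in libraries 6 to 10 (MC903 resident), and at 431, 382, 519 and 303 CPM in bone marrow libraries 11, 13, 14 and 15. Every treated library was below every untreated one. The log2 fold change was -1.43 ± 0.180 (SE, adjusted p = 8.34e-05 by edgeR) in MC903 resident and -1.47 ± 0.195 (SE, adjusted p = 4.88e-05 by edgeR) in bone marrow cells, against the same untreated libraries. No alternative run ended either call, and without library 15 the bone marrow value was -1.35. Cblb, a ubiquitin ligase gene, was lower in bone marrow than untreated cells (log2 fold change -1.02, adjusted p = 0.0309 by edgeR), a call lost in 6 of 9 fits that left out 1 library, among them the fit without library 15 (-0.84, adjusted p = 0.0932), and in 4 of 9 other settings (adjusted p from 0.0633 with only these groups fitted to 0.111 with the length offset). Fcgr2b, the inhibitory Fcγ receptor gene, was at 371, 304, 299, 395 and 420 CPM in untreated libraries 1 to 5, and at 171, 84.8, 99.7, 193 and 157 CPM in libraries 6 to 10. It was at 57.6, 66.9, 109.5 and 596 CPM in bone marrow libraries 11, 13, 14 and 15. The edgeR fit of all libraries called it in none of the comparisons (adjusted p = 0.314, 0.67 and 0.512). In MC903 resident against untreated cells, whose libraries did not overlap, it was called lower when only these groups were fitted (log2 fold change -1.31, adjusted p = 0.00191), with limma voomWithQualityWeights (-1.40, 0.0043) and without libraries 7, 8 and 15 (-1.04, 0.0298). Limma also called it in bone marrow against untreated cells (-1.85, adjusted p = 0.00109). Without library 15 the bone marrow against untreated log2 fold change moved from -0.78 to -2.20 (adjusted p = 2.09e-05), and that against MC903 resident cells turned from 0.56 to -0.85 (adjusted p = 0.0841).

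The γ chain also serves other receptors. Of 11 partners and sister adaptors, 6 were tested and 1 was called, in bone marrow against untreated cells. Fcgr3, the activating Fcγ receptor α chain that pairs with γ, was at 543 ± 91.3 and 424 ± 109 CPM (SD, n = 5 each) in untreated and MC903 resident cells. In bone marrow libraries 11, 13, 14 and 15 it was at 259, 300, 281 and 805 CPM. It was not called in any comparison (adjusted p = 0.693, 0.955 and 0.478 by edgeR), and without library 15 it was called lower in bone marrow than in untreated cells (log2 fold change -0.95, adjusted p = 0.00675), as it was with limma (-0.72, 0.0311). Tyrobp, the related adaptor DAP12, was at 506 ± 80.5, 712 ± 76.9 and 1070 ± 281 CPM in untreated resident, MC903 resident and bone marrow cells. Its bone marrow level exceeded the untreated one (log2 fold change 1.08 ± 0.182, adjusted p = 0.000605 by edgeR), and 0.89 without library 15, where it was at 1470 CPM (adjusted p = 0.00173). The length offset left 0.50 (adjusted p = 0.0693). In MC903 resident against untreated cells Tyrobp was at 0.50 (adjusted p = 0.161 by edgeR), and 4 of 9 other settings called it higher: only genes of at least 10 CPM (0.023), TMM factors from such genes (0.0362), DESeq2 (0.0244) and limma (0.0134). Between bone marrow and MC903 resident cells it was at 0.58 with no overlap (adjusted p = 0.101 by edgeR), and was called without the filter (0.0219) and with limma (0.0334). Fcgr1, Fcgr4, Clec4e, Clec4n and Clec4d were at most 3.57 CPM in any resident library. Clec4n reached 544 CPM in a single bone marrow library, library 15 with its high macrophage markers.

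Of 12 transcription factor genes, 1 was called in MC903 resident against untreated cells and 0 in either of the other comparisons. Gata1, whose protein binds the motif printed in capitals above, was at 112.3, 96.2, 107, 110 and 111 CPM in untreated libraries 1 to 5 and 169, 128, 156, 225 and 250.1 CPM in libraries 6 to 10 (MC903 resident). In bone marrow libraries 11, 13, 14 and 15 it was at 142, 97.9, 99.0 and 104 CPM. MC903 resident libraries were above all untreated ones, and bone marrow libraries lay at the untreated level except for library 11. Gata1 rose by a log2 fold change of 0.80 ± 0.199 (SE, adjusted p = 0.0348 by edgeR) in MC903 resident cells. The call was lost without library 2, 3 or 10 (adjusted p = 0.074, 0.0647 and 0.0855) and without the filter on low counts (0.113). Gata1 was at -0.75 in bone marrow against MC903 resident cells (adjusted p = 0.0715 by edgeR). It was called lower in 6 of 9 other settings, from DESeq2's Wald test (-0.88, adjusted p = 0.000309) to the fit without libraries 7, 8 and 15 (-0.94, 0.0418), and without library 6, 7 or 11 (adjusted p = 0.047, 0.0236 and 0.0495). Dropping library 15 gave -0.71 (adjusted p = 0.0998). Against untreated cells it was at 0.05 (adjusted p = 0.938). Gata2 was at 2794 ± 349, 2036 ± 232 and 2469 ± 823 CPM and was not called in any comparison with all libraries and the filter (lowest adjusted p = 0.291 by edgeR), although MC903 resident libraries were all below untreated ones. Without the filter on low counts it was called lower in that comparison (-0.49, adjusted p = 0.0188). Its bone marrow against untreated value was -0.18, and without library 15 it turned to 0.04.

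Other members of the Ms4a family were low in the resident cells. Of the 18 other listed Ms4a genes 11 were tested, and the highest level of any of them in a resident library was 17.7 CPM (Ms4a6d). The only call was Ms4a4a in bone marrow against untreated cells (adjusted p = 0.0388 by edgeR), at 0.502, 6.26, 3.16 and 612 CPM in libraries 11, 13, 14 and 15, and without library 15 its adjusted p was 0.262. The call was also lost without untreated library 2, 3, 4 or 5 (adjusted p from 0.0685 to 0.0907) and in 5 of 8 other settings (0.0545 to 0.293). Among other IgE-binding genes, Lgals3, which encodes galectin-3, fell from 2361 ± 548 to 996 ± 341 CPM in MC903 resident cells (log2 fold change -1.24 ± 0.258, adjusted p = 0.00926 by edgeR), with no overlap between libraries. Without library 6 that call was lost (-1.06, adjusted p = 0.0612), as it was without libraries 7, 8 and 15 (-1.10, also 0.0612). Fcer2a, the low-affinity IgE receptor gene, and Ighe, the IgE heavy chain gene, were too low to be tested, with at most 29 and 8 counts in any library.

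**Figure D5:**
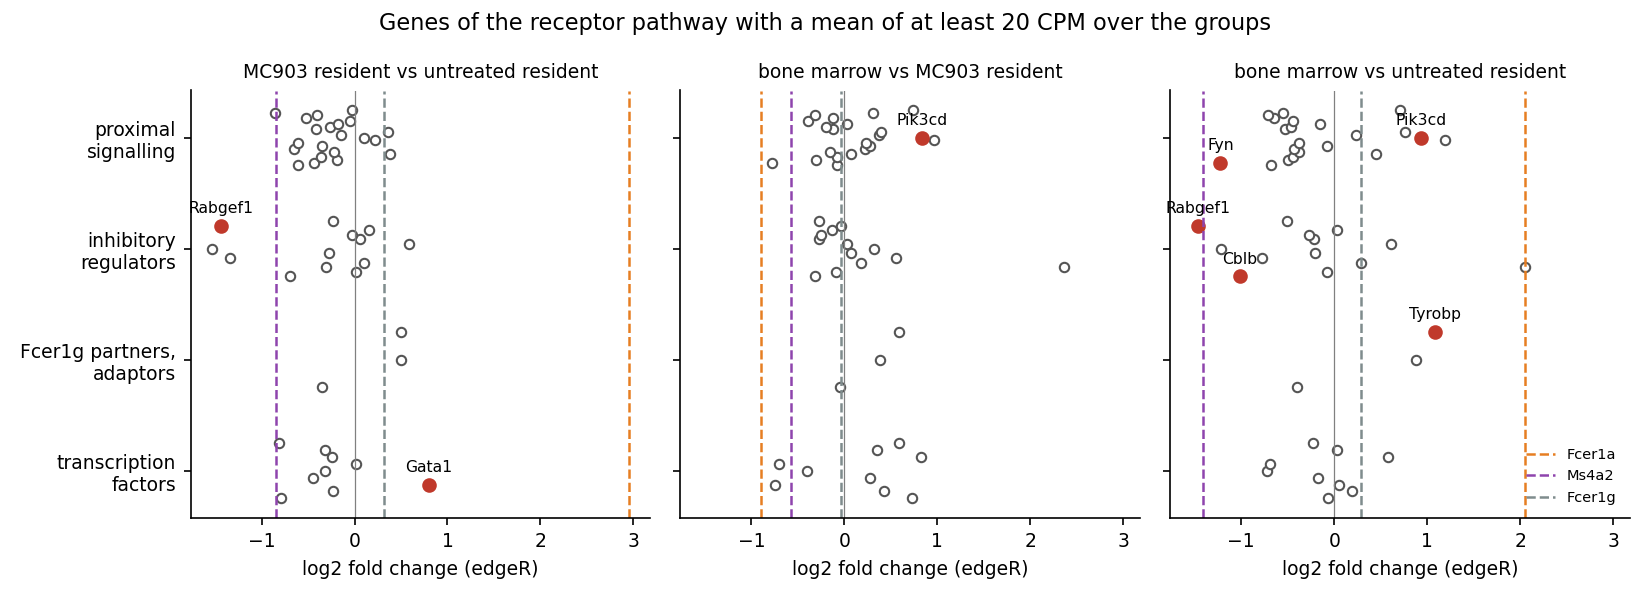
Log2 fold changes of the pathway genes averaging 20 CPM or more over the groups (21 signalling genes, 13 inhibitory regulators, 3 partners or adaptors of Fcer1g and 9 transcription factor genes), one panel per comparison. Filled and named points had an edgeR adjusted p-value under 0.05, and dashed lines mark the 3 chains. Fcer1a at 2.95 lies beyond every pathway gene drawn in the comparison of resident cells.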

How the data were processed

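The authors deposited raw counts of reads per gene for 14 libraries. STAR, featureCounts and mm10 are named in the submitters' processing notes, with versions, strand setting and treatment of shared reads not given in the sources used here. Per the labels' protocols, cDNA was made with SMART-Seq HT and libraries with Nextera XT, without molecular identifiers. All 14 count columns were used. Of the identifiers, 55094 occurred in GENCODE M21 with the same version, and 55394 had a symbol.

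Genes were filtered by filterByExpr (minimum count 10, minimum total 15), scaled by TMM and fitted with the 3 groups and no covariate in edgeR 4.0.16 (R 4.3.3), with Benjamini-Hochberg adjustment over 21014 genes. Each SE is |log2 fold change| divided by √F. Log2 CPM used a prior count of 2. Ratios were compared by exact permutation in SciPy 1.17.1. DESeq2 1.42.0 and limma 3.58.1 served as alternatives. The members, lists and the rule for named genes (up to 4 called genes per list with the largest change, and 8 fixed genes) were chosen with earlier results of these data known. Libraries carry one running number, so none were paired.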

Additional observations from a re-analysis of the deposited data

Results flagged for a closer look

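A library was singled out where its gap to the nearest library of its group, divided by the range of the group, exceeded Dixon's 95% critical value. Of 18 groups of values tested, 6 held such a library, and chance singles out about 1 in 20. The ratios are made from the same chains and libraries, so the 18 groups are not independent and the count shows no excess. Untreated library 5 stood above its group for Ms4a2 (2749 CPM, the others 1659 to 1813) and for Fcer1g (2237 CPM, the others 1394 to 1615). MC903 resident library 7 stood below its group for Fcer1g (1363 CPM, the others 2110.05 to 2277). Untreated library 3 had the lowest log2 Fcer1a/Ms4a2 ratio of its group (-0.28, the others 0.11 to 0.23), and bone marrow library 11 the highest of its own (3.95, the others 3.39 to 3.45). Library 11 also had the most Mcpt8, a basophil marker, at 979 CPM (46.2 to 206 CPM in libraries 13, 14 and 15), whose part in the ratio was not tested. The other listed basophil markers, Prss34, Cd200r3 and Itga2, were not higher in library 11 than in library 13. Untreated library 4 had the lowest log2 Ms4a2/Fcer1g ratio of its group (-1.57, the others -1.44 to -1.39).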

How the results depend on the processing

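No paired analysis was possible because the libraries carry one running number that no 2 groups share. Fcer1a in both comparisons with untreated cells, and Ms4a2 in bone marrow against untreated cells, kept direction and call under all alternatives run. In MC903 resident against untreated cells, Ms4a2 ran from -0.99 to -0.68 with single libraries left out and was -0.58, not called, without libraries 7, 8 and 15. In bone marrow against MC903 resident cells, Fcer1a was -0.79, not called, with limma voomWithQualityWeights and ran from -1.09 to -0.74 with single libraries left out. Ms4a2 there was called at -0.72 with only genes of at least 10 CPM, -0.71 with TMM factors from such genes, -0.72 with the length offset and -0.70 with DESeq2. Fcer1g there turned to 0.021 without the filter and 0.038 with limma, and ran from -0.20 to 0.0098 with single libraries left out. Against untreated cells Fcer1g in bone marrow cells turned to -0.27 with the length offset. The causes were not tested.

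Without libraries 7, 8 and 15, MC903 resident minus untreated log2 ratios were 3.80 (Fcer1a/Ms4a2), 2.80 (Fcer1a/Fcer1g) and -0.998 (Ms4a2/Fcer1g), bone marrow minus untreated ones 3.50, 1.90 and -1.60, and Fcer1a/Fcer1g in bone marrow minus MC903 resident cells -0.90. All missed the threshold there, where fewer libraries raise the smallest possible p. The length offset, an alternative chosen after seeing the data, moved Ms4a2/Fcer1g in bone marrow minus untreated cells to -1.23. With single libraries left out, bone marrow minus MC903 resident ratios ran from -0.50 to -0.28 (Fcer1a/Ms4a2) and from -0.73 to -0.41 (Ms4a2/Fcer1g).

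Genes called numbered 473 in MC903 resident against untreated cells, 1072 with DESeq2, 1357 with limma, 253 without libraries 7, 8 and 15, and 312 to 516 with single libraries left out. In bone marrow against MC903 resident cells the 477 became 748 without the filter, 1720 with DESeq2, 2073 with limma, 315 with only these groups fitted and 302 to 704 with single libraries left out. In bone marrow against untreated cells the 1443 became 2757 with DESeq2 and 2212 with limma. The share of calls that were higher moved from 25.4% to 41.3% with DESeq2 size factors and 48.4% with TMM factors from genes of at least 10 CPM in the first comparison, and from 58.1% to 40.8% and 41.2% in the second.

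In bone marrow against MC903 resident cells Fcgr2b (0.56) turned to -0.45 with limma and, called, to -1.18 without libraries 7, 8 and 15 (adjusted p = 0.0208), and ran from -0.85 to 0.86 with single libraries left out. Fcgr3 (-0.05) turned to 0.011 without the filter, was called at -0.85 without libraries 7, 8 and 15 (adjusted p = 0.0284) and ran from -0.60 to 0.11. In bone marrow against untreated cells Fcgr2b was called at -2.21 without libraries 7, 8 and 15 (adjusted p = 4.33e-05), Gata1 (0.05) was -0.030 with the length offset and ran from -0.10 to 0.097 with single libraries left out, and Gata2 (-0.18) was 0.023 without libraries 7, 8 and 15 and ran from -0.29 to 0.035, the latter without library 15.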
